A study of Homo sapiens with 8 samples.

Results

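The insulin-like growth factor (IGF) binding proteins IGFBP2, IGFBP3, IGFBP4, IGFBP5, IGFBP6 and IGFBP7, the receptors IGF1R and IGF2R, and the receptor adaptors IRS1 and IRS2 were followed across 2 human lung cancer cell lines. These 10 genes were selected by gene symbol from the 61228 names in the count tables. The family was picked because IGFBP6 differed between the lines in its response to the compound, so the values of IGFBP6, and every member's difference between the lines in the response, are given as descriptions without a test. All 10 passed the filter on low counts, which left 21307 genes.

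The study measured total RNA by sequencing in H1975 and HCC44, both labelled wild type and grown in serum-supplemented RPMI-1640 medium. Each line received ACBI1 or its solvent DMSO for 96 h, with 2 libraries in each of the 4 groups (H1975 with DMSO, H1975 with ACBI1, HCC44 with DMSO and HCC44 with ACBI1). ACBI1 is a degrader that brings the chromatin remodelling proteins SMARCA2, SMARCA4 and PBRM1 to the VHL ubiquitin ligase. The labels give its concentration as 1 mM, a unit that could not be checked, and they do not say whether the 2 libraries of a group came from separate cultures, so the p-values measure only the spread between these samples, which may be technical.

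IGF1 and IGF2 are secreted growth factors that activate IGF1R, a receptor tyrosine kinase, which signals through IRS1 and IRS2 to PI3K and AKT. Secreted binding proteins hold the ligands outside the cell and can limit or prolong their action, and proteases release the ligands again. IGFBP6 differs from the other high-affinity binding proteins in preferring IGF2, whereas IGFBP7 is a related protein that binds IGFs only weakly.

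The libraries held between 62467286 and 70455517 counts assigned to genes. Levels are given as CPM, counts relative to the library's total after TMM scaling, and fold changes as log2 values ± the standard error of the edgeR model, with p-values adjusted over all tested genes and called below 0.05. Transcripts of the degraded proteins were not uniformly lower with ACBI1: SMARCA2 fell by 0.69 in H1975 (log2, adjusted p = 0.00188), while its log2 change in HCC44 was 0.05 (adjusted p = 0.790), and neither SMARCA4 nor PBRM1 passed the test in either line. Epithelial markers (6 genes, summed) lay at 5137 to 5393 CPM in H1975 with DMSO and 2331 to 2808 CPM with ACBI1, and at 939.8 to 979.9 CPM and 1199 to 1658 CPM in HCC44. The HCC44 sum was mostly moved by KRT7, whose mean went from 440.8 to 936.1 CPM. There EPCAM, CDH1 and KRT18 were also higher with ACBI1, whereas KRT8 (216.7 to 151.5 CPM) and KRT19 (40.12 to 37.55 CPM) were lower. In bulk samples, fewer cells of a type and less RNA per cell cannot be told apart. Of the lung epithelial markers, NKX2-1, a transcription factor, averaged 25.9 CPM in H1975 with DMSO and 0.0159 CPM in HCC44 with DMSO. The others were low in both groups: NAPSA averaged 1.93 and 0.427 CPM, SFTPB 0.172 and 0.0237 CPM, and SFTPC 0 CPM in each.

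Before treatment the 2 lines carried different sets of IGF binding proteins. Per kilobase of merged exons, IGFBP6 had the highest level of the 6 in H1975, at 33.3 ± 2.82 CPM per kb (SD, n = 2), followed by IGFBP7 at 9.74 ± 0.485 and IGFBP2 at 8.70 ± 2.08, which did not differ beyond their spread. In HCC44 the highest were IGFBP7 at 34.7 ± 1.35 and IGFBP4 at 27.6 ± 2.89 CPM per kb, while IGFBP6 stood at 3.38 ± 1.61. Of the 9 members other than IGFBP6, 8 differed between the untreated lines, against 67.9% of all tested genes. Higher in HCC44 were IGFBP3, IGFBP4, IGFBP7, IGF1R and IGF2R, 5 of the 9 against 31.6% of all genes called higher. Lower were IGFBP2, IGFBP5 and IRS1, 3 of the 9 against 36.4% of all genes. IRS2 was the exception, with overlapping libraries.

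The largest difference between the untreated lines among those 9 was that of IGFBP2, a binding protein often secreted by tumours. Its level was 48.5 and 34.5 CPM in the H1975 DMSO libraries and 0.286 and 0.204 CPM in those of HCC44, the latter from 18 and 13 counts. HCC44 was thus 168-fold lower (log2 change -7.39 ± 0.33, adjusted p = 2.58e-08). IGFBP4, the binding protein cleaved by the protease PAPPA, went the other way and was 7.14-fold higher in HCC44 (2.84 ± 0.33, adjusted p = 1.49e-04). IGFBP2 and IGFBP5 lie tail to tail on chromosome 2, 7668 bases apart in GENCODE 29, and both were lower in HCC44.

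Among the receptors and adaptors, IGF2R had the highest level per kilobase in both untreated lines, at 19.4 ± 1.73 CPM per kb in H1975 and 45.6 ± 2.55 in HCC44 (2.36-fold higher, adjusted p = 2.97e-06). IRS1 came second in H1975, at 13.8 ± 0.289 CPM per kb, and was lowest of the 4 in HCC44, at 4.39 ± 0.217. That was a 3.13-fold lower level of IRS1 in HCC44 (-1.65 ± 0.18, adjusted p = 2.48e-05). IGF1R stood at 7.24 ± 0.475 CPM per kb in H1975, and its CPM was 1.66-fold higher in HCC44 (167.3 ± 6.45 against 101.0 ± 6.63, adjusted p = 2.59e-04). The levels of IRS2, 8.72 ± 2.50 CPM per kb in H1975 and 7.55 ± 1.68 in HCC44, did not separate the lines (adjusted p = 0.514), and in H1975 IRS2 did not differ from IGF1R beyond its spread.

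The genes are spread over the genome. In GENCODE 29 on GRCh38, IGFBP2 lies at chr2:216632828-216664436 on the plus strand, IGFBP5 at chr2:216672105-216695525 and IRS1 at chr2:226731317-226799759, both on the minus strand. IGFBP3 lies at chr7:45912245-45921874 and IGFBP7 at chr4:57030773-57110385, both on the minus strand, and IGFBP4 at chr17:40443461-40457731 on the plus strand. IGF1R (chr15:98648539-98964530) and IGF2R (chr6:159969099-160113507) are on the plus strand and IRS2 (chr13:109752698-109786568) on the minus strand. IGFBP5 shares 298 exonic bases with AC007563.2 and IRS2 shares 115 with AL162497.1, and the strand setting of the counting is not given in the sources used here, so reads over those bases cannot be assigned with certainty.

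**Figure D1:**
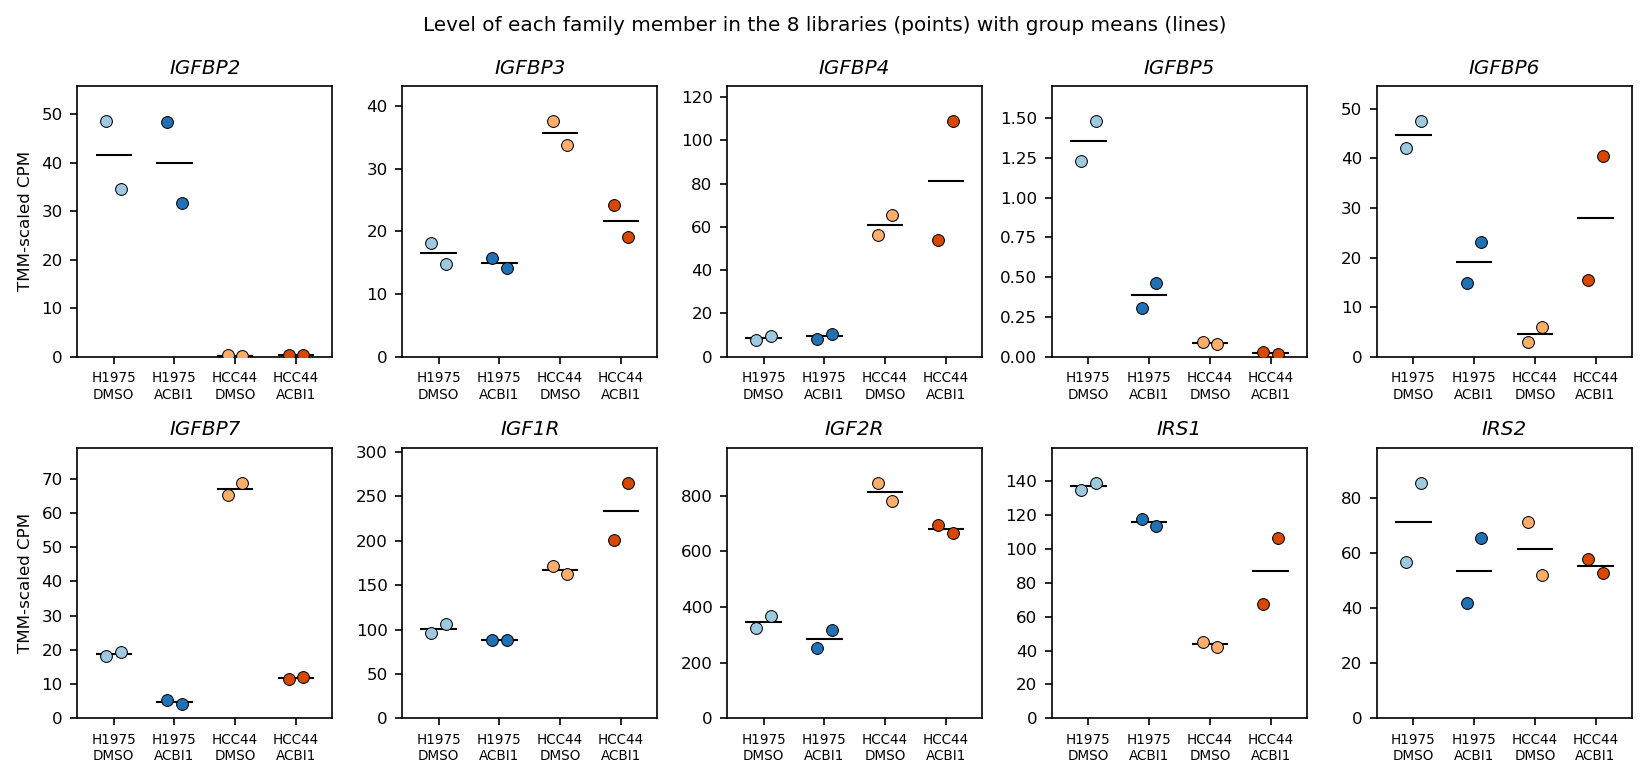
Level of each of the 10 members in the 8 libraries, in TMM-scaled CPM with an axis from 0 for each gene; points are single libraries and lines are group means of 2 libraries. IGFBP6 runs from 42.1 and 47.4 CPM in H1975 with DMSO to 3.02 and 6.08 CPM in HCC44 with DMSO, and IGFBP7 is lower with ACBI1 in both lines.

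IGFBP6 (ENSG00000167779.8, chr12:53097436-53102345, plus strand, GRCh38) had its highest level in untreated H1975 and its lowest in untreated HCC44, and the means of the lines lay closer together with ACBI1 than with DMSO. The H1975 libraries read 42.1 and 47.4 CPM with DMSO and 14.9 and 23.2 CPM with ACBI1. Those of HCC44 read 3.02 and 6.08 CPM with DMSO and 15.5 and 40.4 CPM with ACBI1. Within each line the 2 treatments did not overlap, whereas the ACBI1 libraries of HCC44 spanned a range that contained 1 of the 2 ACBI1 libraries of H1975.

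The group means gave a fold of 2.35 lower with ACBI1 in H1975 (log2 change -1.23 ± 0.48) and 6.14 higher in HCC44 (2.62 ± 0.52). The HCC44 minus H1975 difference in the response was 3.85 ± 0.71 on the log2 scale. In order of level the groups were H1975 with DMSO (44.8 ± 3.79 CPM, SD, n = 2), HCC44 with ACBI1 (28.0 ± 17.6), H1975 with ACBI1 (19.1 ± 5.89) and HCC44 with DMSO (4.55 ± 2.16). Of these neighbours, HCC44 with ACBI1 was not separated from either group beside it by more than its own SD.

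The spread of IGFBP6 within HCC44 was wide. Its second ACBI1 library was 2.61 times its first, and its second DMSO library 2.01 times its first, while 0.613% and 0.447% of genes at 5 CPM or more differed by over 2-fold between the libraries of those groups. IGFBP6 itself averaged 4.55 CPM in HCC44 with DMSO, so it is not among the genes of that group's share. Without the second ACBI1 library of HCC44 the log2 change in that line was 1.77. The 2.01-fold spread of IGFBP4, the 1.58-fold spread of IRS1 and the 1.32-fold spread of IGF1R within the ACBI1 libraries of HCC44 had the same direction, with the second library higher in each. IGFBP2 (1.09-fold) and IGFBP7 (1.05-fold) differed little, while in IGFBP5, IGFBP3, IRS2 and IGF2R the second library was lower, at 0.492, 0.79, 0.908 and 0.962 times the first.

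Short windows of the RefSeq promoter sequences (GRCh38.p14) show where a 6-base motif of the TEAD type lies before the RefSeq start of IGFBP6 and of other members. The motifs were chosen after the promoter of IGFBP6 had been looked at, so they describe the sequence only. Capitals mark GGAATG or its reverse complement CATTCC, and each window of 30 bases is written 5′ to 3′ on the strand of its gene. The windows are chr12:53097554-53097583 on the plus strand for IGFBP6, with the motif starting at base -101 from the RefSeq start, chr2:226799836-226799865 on the minus strand for IRS1, starting at -33, and chr2:216695767-216695796 on the minus strand for IGFBP5, starting at -235. The GENCODE 29 start of IGFBP6 lies farther upstream than the RefSeq start, so that window falls inside the gene as given above.
IGFBP6: cacccagtttagGGAATGcccctgccctct
IRS1: cgggctcggcccGGAATGtagagacccggg
IGFBP5: gcccctttcttaCATTCCggggggaggagg

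The motif was present on either strand in 3 of the 11 promoter windows of the members, against 11.9% of the 35114 windows of 250 bases searched. IGFBP6, whose promoter had been looked at before the motifs were chosen, is among them, so nothing is read from this comparison. The table holds windows for 9 of the 10 members, 3 of them for IGFBP2. The AP-1 motif TGANTCA was in 0 of the 11 (6.57% of all windows), TATAAA was in 1, that of IGFBP4 (10.7% of all), and the GC box GGGCGG was in 9 (42.6% of all). The remaining motifs searched were the E-box CANNTG, in 7 (61.8% of all), and the HIF-type motif NACGTG, in 2 (18.5% of all). The log2 changes of the 3 genes with the TEAD-type letters in HCC44 were 2.62 ± 0.52 for IGFBP6, 1.00 ± 0.18 for IRS1 and -1.79 ± 0.75 for IGFBP5.

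Among the 9 other members, 2 were called in H1975, both lower, against 31.3% of all tested genes called in either direction, 14.6% higher and 16.7% lower. In HCC44, 4 of the 9 were called, against 34.9% of all genes: 2 higher (17.5% of all) and 2 lower (17.4% of all). The median log2 change of the 9 was -0.24 in H1975 and -0.16 in HCC44, beside -0.01 and 0.01 over all tested genes. IGFBP7 fell in both lines.

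**Figure D2:**
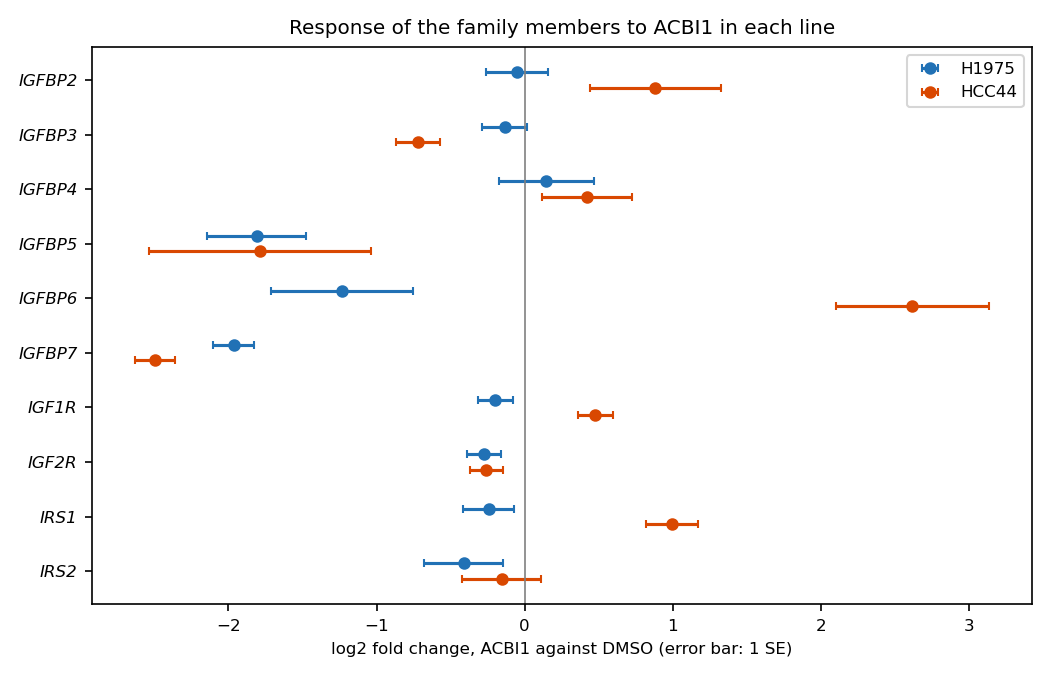
Log2 fold change of each member with ACBI1 against DMSO in H1975 and in HCC44; points are estimates over 2 libraries a group and bars are standard errors of the edgeR model. IGFBP7 lies below 0 in both lines, at -1.97 and -2.50, and IGFBP6 lies at -1.23 in H1975 and 2.62 in HCC44.

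IGFBP7, a secreted protein of the matrix around vessels and tumours, changed most firmly. Its libraries read 18.1 and 19.5 CPM with DMSO and 5.43 and 4.2 CPM with ACBI1 in H1975, and 65.1 and 68.8 CPM with DMSO and 11.6 and 12.1 CPM with ACBI1 in HCC44. No DMSO library overlapped an ACBI1 library in either line. It fell 3.90-fold in H1975 (-1.97 ± 0.14, adjusted p = 1e-05) and 5.64-fold in HCC44 (-2.50 ± 0.14, adjusted p = 9.38e-07).

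IGFBP7 shares 270 exonic bases (14% of its merged exons) with POLR2B and 94 bases with its antisense RNA IGFBP7-AS1. Reads over these bases are uncertain in the same way. IGFBP7-AS1 itself was at 0.249 and 0.547 CPM in H1975 with DMSO and 0.173 and 0.127 CPM with ACBI1, and at 1.75 and 1.72 CPM and 0.160 and 0.299 CPM in HCC44. It too fell in both lines, by 1.40 on the log2 scale in H1975 (adjusted p = 0.0478) and by 2.91 on that scale in HCC44 (adjusted p = 4.26e-04).

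IGFBP5, a binding protein that attaches to extracellular matrix, was scarce in every group. H1975 had 79 and 100 counts with DMSO (1.23 and 1.48 CPM) and 23 and 33 counts with ACBI1 (0.306 and 0.467 CPM), and these groups did not overlap. It fell 3.50-fold there (-1.81 ± 0.33, adjusted p = 0.00241). HCC44 had 6 and 5 counts with DMSO and 2 and 1 with ACBI1, and its log2 change of -1.79 ± 0.75 did not pass (adjusted p = 0.0887).

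IGFBP3, the main carrier of IGFs in serum, was at 18.1 and 14.8 CPM in H1975 with DMSO and 15.8 and 14.2 CPM with ACBI1, with overlapping libraries (-0.14 ± 0.15, adjusted p = 0.533). HCC44 read 37.6 and 33.8 CPM with DMSO and 24.2 and 19.1 CPM with ACBI1. The HCC44 groups did not overlap, and IGFBP3 fell 1.65-fold (-0.72 ± 0.15, adjusted p = 0.00364). Its neighbour on chromosome 7, IGFBP1, a binding protein made mainly by liver, had too few counts for the test: 7 and 6 in HCC44 with DMSO, 0 in both ACBI1 libraries of that line, and at most 1 in any H1975 library. Against a floor of 3 counts over the ACBI1 group, the IGFBP1 level in HCC44 was 4.31-fold lower with ACBI1. That value leaves out the counting error of the DMSO libraries. With it included, the 95% interval for counting error began at 3.03-fold lower and had no upper end.

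IGFBP4 libraries overlapped between treatments in both lines. In HCC44 they read 56.3 and 65.3 CPM with DMSO and 54.1 and 108.7 CPM with ACBI1 (0.42 ± 0.30, adjusted p = 0.333). The high reading was the second ACBI1 library: without it the log2 change was -0.17 (adjusted p = 0.549), and without the first it was 0.84 (adjusted p = 0.0042). In H1975 IGFBP4 read 7.63 and 9.39 CPM with DMSO and 8.30 and 10.6 CPM with ACBI1 (0.15 ± 0.32, adjusted p = 0.772).

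IGFBP2 in H1975 had 48.5 and 34.5 CPM with DMSO and 48.4 and 31.6 CPM with ACBI1, a log2 change of -0.05 ± 0.21 (adjusted p = 0.880). In HCC44 it had 18 and 13 counts with DMSO and 27 and 30 with ACBI1. Those HCC44 libraries did not overlap, yet the log2 change of 0.88 ± 0.44 missed the threshold (adjusted p = 0.155). Without a filter on low counts it passed (adjusted p = 0.0243).

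Summed per kilobase, the 6 binding proteins came to 59.4 ± 1.3 CPM per kb in H1975 with DMSO and 32.7 ± 1.95 with ACBI1 (SD, n = 2), and to 73.5 ± 5.26 and 68.7 ± 30.04 CPM per kb in HCC44. The libraries of H1975 did not overlap between treatments, whereas those of HCC44 did, at 69.8 and 77.3 against 47.5 and 90.0 CPM per kb. IGFBP6 supplied 56.0% ± 3.51 of the sum in H1975 with DMSO and 43.0% ± 10.8 with ACBI1, and 4.53% ± 1.86 and 28.8% ± 6.45 in HCC44. IGFBP7 went from 47.2% ± 1.54 to 9.82% ± 4.01 in HCC44, and IGFBP4 from 37.5% ± 1.25 to 53.3% ± 2.22. The total in HCC44 did not separate by treatment, whereas the IGFBP7 share did, with no overlap. These shares include IGFBP6, whose values selected the family, and were not tested.

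**Figure D3:**
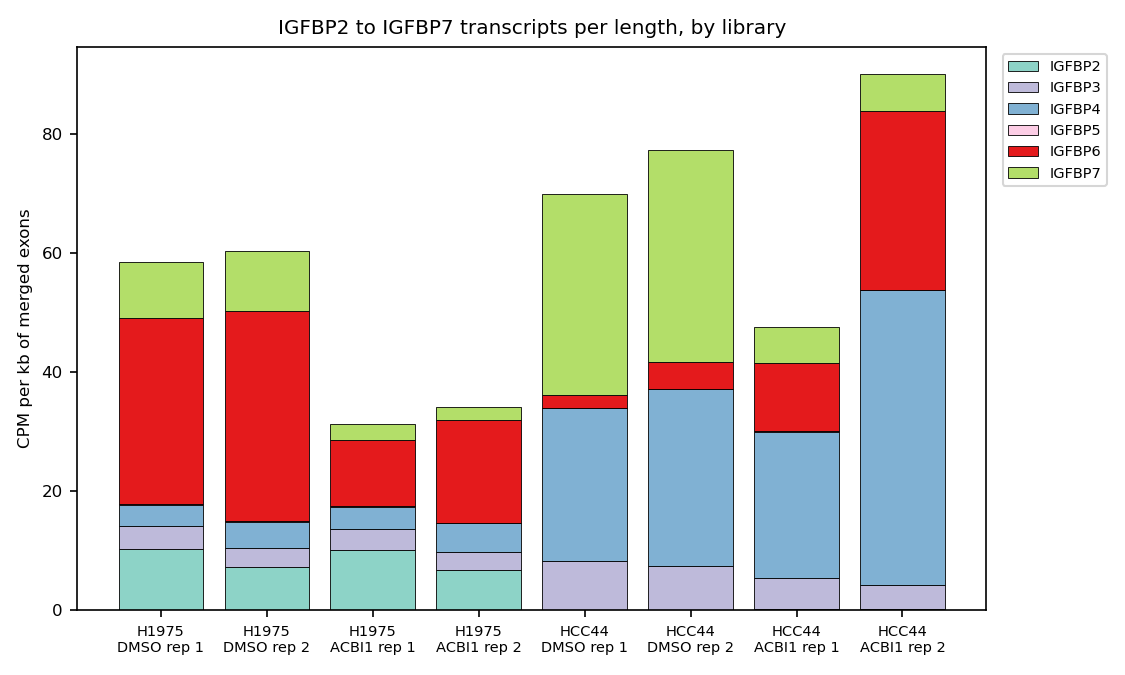
Summed level of the 6 IGF binding proteins in each library, in CPM per kilobase of merged exons, with each bar divided by gene. In H1975 the bars stand near 59.4 with DMSO and 32.7 with ACBI1, and in HCC44 the IGFBP7 section is smaller and the IGFBP6 section taller in both ACBI1 libraries, with IGFBP4 tall in the second.

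Of the 4 receptors and adaptors, IGF1R and IRS1 rose in HCC44, while log2 changes of the 4 in H1975 lay between -0.41 and -0.20, with adjusted p of 0.0920 or more. IRS1, the adaptor that links IGF1R to PI3K, read 134.9 and 139.0 CPM in H1975 with DMSO and 117.7 and 113.7 CPM with ACBI1, and 45.2 and 42.2 CPM and 67.5 and 106.7 CPM in HCC44. The treatments did not overlap in either line. IRS1 rose 1.99-fold in HCC44 (1.00 ± 0.18, adjusted p = 0.00214), and without the second ACBI1 library of that line by 0.63 on the log2 scale. Its change in H1975 was -0.24 ± 0.17 (adjusted p = 0.322), which passed when the H1975 libraries were fitted alone (adjusted p = 0.0400) and without either ACBI1 library of HCC44 (adjusted p = 0.0371 and 0.0373).

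IGF1R, the signalling receptor, was at 96.3 and 105.7 CPM in H1975 with DMSO and 88.1 and 88.1 CPM with ACBI1 (-0.20 ± 0.12, adjusted p = 0.244). In HCC44 it was at 171.9 and 162.8 CPM with DMSO and 200.9 and 265.2 CPM with ACBI1. These HCC44 groups did not overlap, and IGF1R rose 1.39-fold (0.48 ± 0.12, adjusted p = 0.0101). The call was lost without the second ACBI1 library of HCC44 (0.26, adjusted p = 0.0763) and without its second DMSO library (0.44, adjusted p = 0.0799).

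IGF2R, which removes IGF2 from the cell surface and also carries lysosomal enzymes, had higher CPM in HCC44 than in H1975, with DMSO means of 814.4 and 345.4. The H1975 libraries read 323.6 and 367.1 CPM with DMSO and 254.1 and 317.5 CPM with ACBI1, and those of HCC44 846.6 and 782.2 CPM and 693.7 and 667.2 CPM. The log2 changes were -0.27 ± 0.11 in H1975 (adjusted p = 0.0920) and -0.26 ± 0.11 in HCC44 (adjusted p = 0.101). Libraries of the 2 treatments did not overlap in either line. Both changes passed when no filter on low counts was used (adjusted p = 0.0259 and 0.0412). IRS2, the adaptor related to IRS1, overlapped between treatments in both lines, at 56.6 and 85.3 CPM with DMSO and 41.6 and 65.3 CPM with ACBI1 in H1975. In HCC44 IRS2 read 71.1 and 51.8 CPM with DMSO and 57.8 and 52.5 CPM with ACBI1. The log2 changes of IRS2 were -0.41 ± 0.27 (adjusted p = 0.293) and -0.16 ± 0.27 (adjusted p = 0.708).

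The HCC44 minus H1975 difference in the response, which the choice of the family used, is given for the other members as a description. It was 1.24 ± 0.25 for IRS1, 0.93 ± 0.49 for IGFBP2 and 0.68 ± 0.17 for IGF1R on the log2 scale. At the other end stood IGFBP3 at -0.58 ± 0.21 and IGFBP7 at -0.53 ± 0.19, while IGF2R (0.01 ± 0.16) and IGFBP5 (0.02 ± 0.82) had the smallest estimates, that of IGFBP5 with the widest error of the 10, and IGFBP4 (0.28 ± 0.44) and IRS2 (0.26 ± 0.38) had differences below their standard errors. IGF1R and IRS1, 2 of the 9, lay past the threshold used elsewhere, both higher, where 18.6% of all tested genes did (10.2% higher and 8.4% lower). Nothing is read from that count, since the family was chosen on this contrast.

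Genes whose log2 CPM over the 8 libraries was among the most like that of IGFBP6, among the 10603 genes whose mean reached 5 CPM in at least 1 group of each line, were CCNYL1 (Pearson r = 0.993) and CD109 (r = 0.985). These correlations are descriptions over 8 libraries that fall into 4 groups. CD109, a surface protein that binds TGF-beta, read 140.1 and 167.2 CPM in H1975 with DMSO and 96.3 and 100.8 CPM with ACBI1, and 41.3 and 59.2 CPM and 83.9 and 123.7 CPM in HCC44. CCNYL1, a cyclin-Y-like protein, read 47.1 and 48.9 CPM and 38.2 and 40.5 CPM in H1975, and 28.0 and 31.6 CPM and 40.3 and 46.4 CPM in HCC44. Like IGFBP6, both were higher in the second library of each HCC44 group, a likeness favoured by their choice on these same libraries. Among the members, r with IGFBP6 was highest for IRS1 (0.900) and lowest for IGFBP3 (-0.842).

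**Figure D4:**
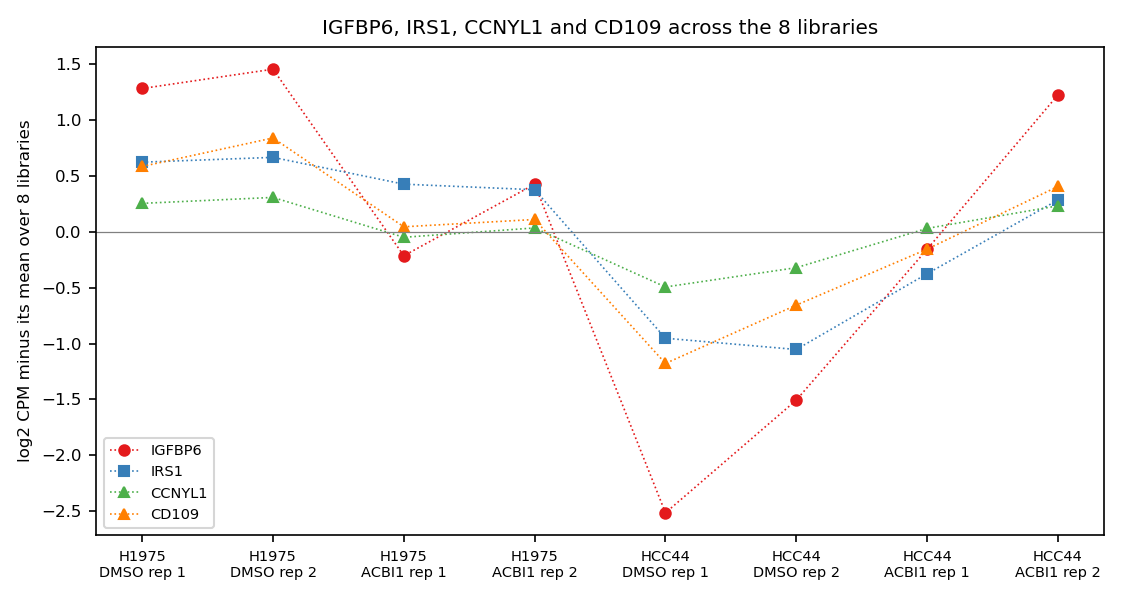
Levels of IGFBP6, IRS1, CCNYL1 and CD109 across the 8 libraries, as log2 CPM minus the gene's own mean; dotted lines join the points of 1 gene and carry no order of replicates. By group, all 4 genes are highest in H1975 with DMSO and lowest in HCC44 with DMSO. CCNYL1 and CD109 were chosen for their correlation with IGFBP6 over these libraries, which favours a shared order.

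The rest of the IGF system was read from 9 further lists of 82 genes, of which 73 were tested. In H1975, 27 passed, 6 higher and 21 lower (37.0% of those tested, against 31.3% of all genes). In HCC44, 33 passed, 15 higher and 18 lower (45.2%, against 34.9%). The median log2 change over the lists was -0.25 in H1975 and -0.02 in HCC44. Leaving out any library of a line also lowered the share of all tested genes called with ACBI1 in that line. A lower count of listed genes or members in such a fit, here and below, is therefore not read as particular to them. The H1975 count was 14 without its second DMSO library and 14 without its first ACBI1 library, and the HCC44 count was 20 without its second DMSO library.

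Ligand transcripts were close to the floor. IGF2, the ligand that IGFBP6 prefers, had 5 and 1 counts in H1975 with DMSO and 30 and 46 with ACBI1, and 2 and 0 counts in HCC44 with DMSO and 53 and 27 with ACBI1. It rose in both lines, with a ratio of summed counts scaled to depth of 11.5 in H1975 (95% interval 5.03 to 32.2 for counting error) and 40.2 in HCC44 (10.8 to 338). The edgeR test gave adjusted p = 0.00463 and 9.87e-04, but the level stayed below 1 CPM in every library. The fitted log2 change of IGF2 in H1975 was 3.47, and 4.97 without its first and 2.77 without its second DMSO library. In HCC44 it was 5.17, and 4.25 without the second DMSO library and 8.41 without the first, which leaves 0 counts in that group. IGF1 had at most 5 counts in any library, and INS had 0 in all 8. IGFBPL1, an IGFBP-like protein, rose in H1975 from 0.140 and 0.178 CPM to 0.652 and 0.537 CPM (1.89, adjusted p = 0.0047; 0.0545 by DESeq2). It was lower in HCC44 than in H1975 with DMSO (-2.27, adjusted p = 0.00698), as was IGFALS, the serum partner of IGFBP3 (-1.46, adjusted p = 0.0398), both below 1 CPM. The IGFALS call was lost without a filter, with DESeq2 and without any library other than the first HCC44 DMSO library.

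Among 8 proteases that cut binding proteins and inhibitors of such proteases, 5 fell in H1975, and 3 fell and 1 rose in HCC44, a total of 4 that was 1 without the second DMSO library of HCC44. PAPPA, the IGFBP4 protease, passed in neither line (-0.65, adjusted p = 0.0685 in H1975, and 0.35, adjusted p = 0.213 in HCC44), but its HCC44 DMSO libraries stood at 104.2 and 112.7 CPM against 4.13 and 5.71 in H1975 (4.46, adjusted p = 3.89e-07). HCC44 thus had higher transcripts of both IGFBP4 and its protease. Of the protease list 62.5% was called with ACBI1 in H1975 and 50% in HCC44, against 31.3% and 34.9% of all tested genes. PAPPA2, which cuts IGFBP3 and IGFBP5, fell by 2.96 in H1975 (adjusted p = 0.00402). In HCC44 the fall of PAPPA2 was 1.52 (adjusted p = 0.0311). Between the untreated lines ADAM12 (3.21, adjusted p = 1.82e-07) and STC2 (1.21, adjusted p = 4.16e-06) were higher in HCC44, and CTSD was lower (-1.68, adjusted p = 2.04e-07).

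The stanniocalcins, which block PAPPA, fell in H1975, STC1 by 1.2 (adjusted p = 6.58e-04) and STC2 by 0.93 (adjusted p = 2.65e-04). In HCC44 STC2 fell by 0.52 (adjusted p = 0.00529), while STC1 had a log2 change of 0.03 (adjusted p = 0.918). CTSD, a lysosomal protease carried by IGF2R, fell in H1975 by 1.17 (adjusted p = 4.9e-05) and in HCC44 by 0.49 (adjusted p = 0.00495). ADAM12 fell by 0.88 in H1975 (adjusted p = 0.0116), and ADAM28 rose by 1.68 in HCC44 (adjusted p = 0.0201).

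Several of these protease calls rested on single libraries. In HCC44, PAPPA2 was lost without any of the first DMSO (adjusted p = 0.113), the second DMSO (0.0892) or the second ACBI1 library (log2 change -0.86, adjusted p = 0.124), and was -2.73 without the first ACBI1 library. ADAM28 was lost without the second DMSO (log2 change 1.10) or the first ACBI1 library of HCC44 (1.55) and was 2.65 without the first DMSO library. ADAM12 was lost without the second DMSO or the first ACBI1 library of H1975, and CTSD in HCC44 without the second DMSO library of that line.

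Of the 3 mRNA-binding proteins that take their name from IGF2, IGF2BP3 fell by 0.44 in H1975 (adjusted p = 0.00698), a call lost when library totals replaced TMM factors and without the second DMSO or the first ACBI1 library of H1975. IGF2BP1 separated the untreated lines, at 0.0466 and 0.133 CPM in H1975 and 22.8 and 21.7 CPM in HCC44 (7.91, adjusted p = 2.03e-09). IGF2BP2 was also higher there in HCC44 (1.24, adjusted p = 4.58e-07), and IGF2BP3 lower (-0.26, adjusted p = 0.0356), a call lost without either ACBI1 library of H1975, its second DMSO or the first DMSO library of HCC44 and with RLE factors. In the list of other genes with an IGFBP-like domain, 3 of 8 fell in H1975, led by CCN3 (-2.51, adjusted p = 0.00118, and -3.39 without the first ACBI1 library of H1975). In HCC44 2 of the 8 rose and 1 fell, and the largest change was that of HTRA4 (2.46, adjusted p = 0.0147), lost without the first DMSO or the second ACBI1 library of HCC44 and 3.94 without the second DMSO library. HTRA4 had 1 and 5 counts in HCC44 with DMSO and 14 and 20 with ACBI1. Of this list 37.5% was called in each line, against 31.3% of all tested genes in H1975 and 34.9% in HCC44.

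Cell-surface partners of the binding proteins gave 1 gene up and 1 down of 6 in each line, totals of 2 that were 1 in H1975 without its first DMSO library and 1 in HCC44 without its second DMSO or either DMSO library of H1975. ITGA5, the alpha chain of a fibronectin receptor, fell in H1975 by 1.11 (adjusted p = 4.86e-05) and in HCC44 by 0.40 (adjusted p = 0.0113). CAV1, the coat protein of caveolae, rose by 1.40 in HCC44 (adjusted p = 0.00863), by 0.82 without the second ACBI1 library of HCC44, and was not called without a filter on low counts (adjusted p = 0.0864) or without either DMSO library of H1975. In the mannose 6-phosphate sorting list, to which IGF2R belongs by function, the median log2 change of the 7 genes was 0.04 in H1975, and 3 rose in HCC44, led by NAGPA, an enzyme that finishes the sorting tag (0.46, adjusted p = 0.0061), while the list's median there was -0.15. Of the cell-surface list 33.3% was called in each line, and of the sorting list 0% in H1975 and 42.9% in HCC44. Over all tested genes the shares were 31.3% in H1975 and 34.9% in HCC44.

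**Figure D5:**
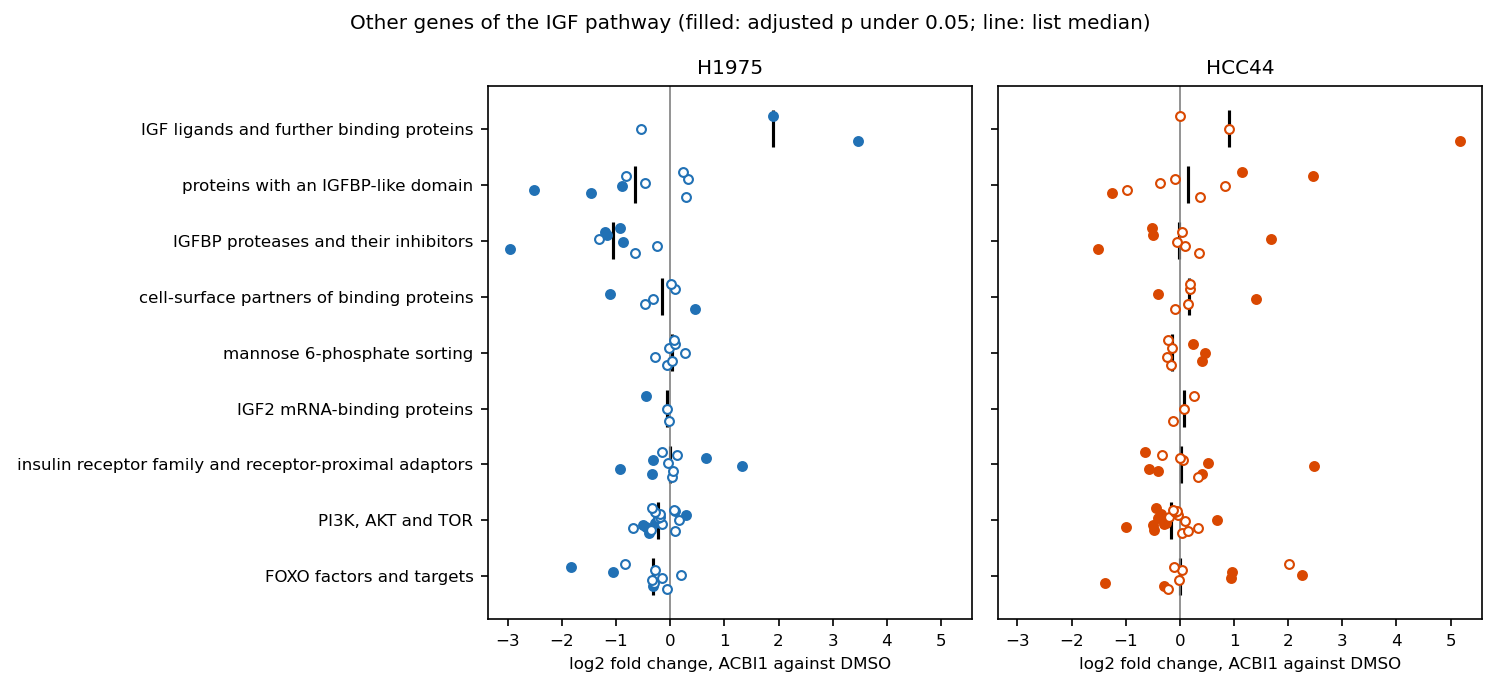
Log2 change with ACBI1 of each tested gene in the lists of the IGF system, by line; filled points passed at adjusted p under 0.05, open points did not, and vertical lines are list medians. Calls in H1975 number 6 higher and 21 lower over all lists, and calls in HCC44 15 higher and 18 lower.

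Downstream of the receptors, 2 of 10 insulin receptor family members and adaptors rose and 3 fell in H1975, and 3 rose and 3 fell in HCC44. The H1975 total of 5 was 2 without its first DMSO library and 3 without each of its other libraries. GRB14, an adaptor that restrains insulin receptor signalling, had the largest change in both lines, 1.32 in H1975 (adjusted p = 7.07e-04) and 2.48 in HCC44 (adjusted p = 0.00136). The HCC44 change of GRB14 rested on 4 and 3 counts with DMSO and 16 and 24 with ACBI1. Of 18 genes of PI3K, AKT and TOR signalling, 1 rose and 5 fell in H1975, a total of 6 that was 0 without the second DMSO or the first ACBI1 library of H1975, 2 without its first DMSO, 1 without its second ACBI1 and 3 without either DMSO library of HCC44. In HCC44 1 rose and 8 fell, a total of 9 that was 3 without its second DMSO and 4 without its first ACBI1 library. PIK3R3, a regulatory subunit of PI3K, fell by 0.99 in HCC44 (adjusted p = 4.43e-04). Of the insulin receptor list 50% was called in H1975 and 60% in HCC44, and of the PI3K list 33.3% and 50%. Over all tested genes the shares were 31.3% and 34.9%.

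FOXO factors and their targets are held down by AKT signalling, and 3 of the 10 fell in H1975, while 3 rose and 2 fell in HCC44. The H1975 count was 1 without its second DMSO or its first ACBI1 library, and the HCC44 total of 5 was 3 without either of its DMSO libraries or its second ACBI1 library. FBXO32, a ubiquitin ligase, fell by 1.83 in H1975 (adjusted p = 8.62e-06) and had a log2 change of -0.11 in HCC44 (adjusted p = 0.539). PIK3IP1, an inhibitor of PI3K, rose by 2.25 in HCC44 (adjusted p = 2.14e-04) and had a log2 change of 0.20 in H1975 (adjusted p = 0.611). The share of the FOXO list called was 30% in H1975 and 50% in HCC44, against 31.3% and 34.9% of all tested genes.

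Marker lists of other cell types were read beside these results. The fibroblast list summed to 48.8 to 71.9 CPM with DMSO and 25.4 to 30.4 CPM with ACBI1 in H1975, and to 73.4 to 91.9 CPM and 203.3 to 406.5 CPM in HCC44, the same directions as IGFBP6. The sum was mostly COL1A1, which averaged 80.3 CPM with DMSO and 302.0 CPM with ACBI1 in HCC44. PDGFRB went from 0.638 to 1.66 CPM in H1975 and COL1A2 from 0.0948 to 0 CPM in HCC44, both opposite to IGFBP6, and DCN was at 0 in all 8 libraries. The mesenchymal list summed to 2225 to 2823 CPM and 949.0 to 1048 CPM in H1975, and to 483.2 to 587.4 CPM and 669.7 to 878.2 CPM in HCC44. This sum and the epithelial sum given above moved in the directions of IGFBP6 too, so the pattern was not particular to the fibroblast list. Within the mesenchymal list, ZEB1 went from 16.4 to 17.6 CPM in H1975 and CDH2 from 0.174 to 0.0239 CPM in HCC44, both opposite to IGFBP6. Endothelial markers summed to 3.32 to 4.01 CPM and 1.04 to 1.117 CPM in HCC44, the direction of IGFBP7 there, and immune markers to at most 0.254 CPM in any library. The part of these markers in the results for IGFBP6 and IGFBP7 was not tested.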

How the data were processed

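The authors deposited whole-number read counts per gene symbol, 1 table per library; per the submitters' processing notes the tools were TopHat2 2.1.1 and HTSeq 0.11.0 on hg38. The annotation release and strand setting are not given in the sources used here. The 5 summary lines of each table (14.3% to 15.8% of its total) were left out. Counts were fitted with the quasi-likelihood F-test of edgeR 4.0.16 (R 4.3.3; robust dispersion, TMM factors, filterByExpr, 1 mean per group over all 8 libraries, 4 residual degrees of freedom). P-values were adjusted by Benjamini-Hochberg over all tested genes. Standard errors were derived from the log2 change and its F statistic, and for the difference between the lines from those of its parts. The script was tested on simulated counts. Exon lengths came from GENCODE 29. Promoters came from RefSeq (GRCh38.p14). Figures were drawn with matplotlib 3.10.9.

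The members and lists were chosen with earlier results of these data known. Named genes are all members, every called ligand, further binding protein, protease and IGF2 mRNA-binding protein, the most changed called gene per line in the other lists, the 3 genes most like IGFBP6 and the degraded proteins; some of these are not reported here. Alternatives were DESeq2 1.42.0, other scaling factors, filters, thresholds and dispersion, single-line fits, a replicate block and leaving out each library. Counting intervals and floors cover counting error only.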

Additional observations from a re-analysis of the deposited data

Results flagged for a closer look

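Several genes differed between the lines in their response to ACBI1, by the test of the difference itself or, for the members, as the values that chose the family. On the log2 scale, as HCC44 minus H1975, IGFBP6 was at 3.85, IRS1 at 1.24 and IGF1R at 0.68. Outside the members, ADAM28 was at 2.99 (edgeR adjusted p = 0.0271), PIK3IP1 at 2.05 (0.00571), CAV1 at 1.72 (0.0263) and FBXO32 at 1.71 (2.18e-04). STC1 stood at 1.23 (0.00692), IGF2BP3 at 0.71 (0.00668), ITGA5 at 0.71 (0.00726) and CTSD at 0.68 (0.0122). These are the named genes only, and they share the same DMSO and ACBI1 libraries. Over the 73 tested genes of the lists, 17 passed the test of the difference (23.3%, against 18.6% of all tested genes). Of these, 13 were higher and 4 lower, where 10.2% of all tested genes were called higher and 8.4% lower.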

How the results depend on the processing

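With each library left out in turn, the lowest and highest IGFBP6 changes were -1.57 and -0.91 in H1975 and 1.77 and 3.21 in HCC44, without a change of direction. The IGFBP7 and IGFBP5 calls in H1975 and the IGFBP7, IGFBP3 and IRS1 calls in HCC44 held in every one of these fits. Called members (of 9) numbered 2 to 3 in H1975, 3 to 5 in HCC44 and 8 in the untreated comparison, and 1 to 3 for the difference in response. The difference count was 4 with library totals, with DESeq2 and without a filter (20%, 23.7% and 13.2% of all genes), and 1 at adjusted p under 0.01. The family was chosen on that contrast, so these counts support nothing. Replicate numbers are shared, but the labels name no shared batch. Deviations of same-numbered libraries correlated at 0.581 in H1975 and 0.170 in HCC44. With a replicate block the members called numbered 2 in H1975, 5 in HCC44, 8 between untreated lines and 3 for the difference. The shares of all tested genes called in that fit were 34.4%, 37.7%, 69.5% and 21.4%. IGFBP2 in HCC44 passed with the block (0.89, edgeR adjusted p = 0.0323).

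The ACBI1 and untreated-line contrasts turned direction for members that had not passed only. For the difference in response, leaving libraries out gave -0.172 to 0.161 for IGF2R, -0.521 to 0.422 for IGFBP5, -0.312 to 0.696 for IGFBP4 and -0.123 to 0.596 for IRS2. In H1975, library totals gave 0.153 for IGFBP2, 0.068 for IGFBP3 and 0.007 for IGF1R, and upper-quartile factors gave 0.021 for IGFBP2. Leaving libraries out gave ranges of -0.354 to 0.248 for IGFBP2, -0.224 to 0.012 for IGFBP3 and -0.016 to 0.355 for IGFBP4 in H1975, -0.168 to 0.84 for IGFBP4 and -0.363 to 0.086 for IRS2 in HCC44, and -0.482 to 0.169 for IRS2 between untreated lines. Library totals moved the median gene by 0.203 in H1975, and 72.3% of calls there were then higher, against 46.6%; in HCC44 60.5% against 50.0%, and for the difference 40.5% against 54.9%. The cause of these changes was not tested. The insulin receptor list had 3 calls in H1975 with RLE or upper-quartile factors and DESeq2 (5 otherwise reported), the PI3K list 3 there with upper-quartile factors (6) and 4 in HCC44 with library totals (9), and the cell-surface list 1 in HCC44 without a filter (2). Of the IGF system lists, the called genes numbered 14 in H1975 and 18 in HCC44 at adjusted p under 0.01. Counts under 100, as for IGF2, IGFBP5 and, in HCC44, IGFBP2, GRB14 and HTRA4, limit the precision of those folds.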

Other observations

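H19, the imprinted RNA gene beside IGF2, was read after its values were seen. It had 0.870 and 0.917 CPM in H1975 with DMSO and 1.92 and 2.02 CPM with ACBI1, and 0.159 and 0.0940 CPM in HCC44 with DMSO and 0.320 and 0.677 CPM with ACBI1. H19 rose in both lines, with log2 changes of 1.14 in H1975 (edgeR adjusted p = 0.0229) and 1.97 in HCC44 (adjusted p = 0.00718), the directions of IGF2.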
